A study of Mus musculus with 8 samples.

Results

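The 10 genes described here encode 6 matrix metalloproteinases (Mmp2, Mmp3, Mmp9, Mmp12, Mmp14 and Mmp19) and the 4 tissue inhibitors of metalloproteinases (Timp1, Timp2, Timp3 and Timp4). They were taken by gene symbol from the 54752 genes counted in each library, and all 10 were found. The data are RNA-seq read counts from the right cerebral cortex of 8 adult male wild-type C57BL/6 mice at 3 weeks after the operation, each mouse giving 1 library. The 4 BCAS mice had a microcoil wrapped around each common carotid artery (bilateral carotid artery stenosis, a model of chronic cerebral hypoperfusion), with the narrower coil on the right side. The 4 sham mice underwent the same operation without coils. Because whole cortex was sequenced, a change in the number of cells of a type and a change in RNA per cell cannot be told apart.

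Matrix metalloproteinases (MMPs) are zinc-dependent proteases that cut collagens, laminins and other proteins of the extracellular matrix, and most are made as inactive proenzymes. The tissue inhibitors of metalloproteinases (TIMPs) block the active enzymes by binding at the catalytic site. In the brain these proteins are known for their part in remodelling the basement membrane and tight junctions around blood vessels, and transcript levels do not show how much of an enzyme is active.

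The libraries held 16759364 to 18564612 counts in sham mice and 17498316 to 21794435 in BCAS mice. Summed neuron markers stood between 8638 and 10166 CPM (counts scaled to the library size, with TMM factors) in sham mice. Neuronal transcripts were thus present, though these markers do not tell cortex from other brain regions. Choroid plexus markers summed to 785 CPM in sham mouse 3 against 15.7 to 51.8 in the other sham mice, so that library stood apart. BCAS mouse 2 stood closest to the sham mice in most of the measures below. Results that turn on either library are given with and without it.

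Of the 10 members, 6 were called higher in BCAS mice, which means an adjusted p under 0.05 in edgeR's quasi-likelihood test (Benjamini-Hochberg over 17136 genes) and a log2 fold change above 1. These were Mmp2, Mmp3, Mmp9, Mmp14, Mmp19 and Timp1. Of all tested genes 11.0% were called higher and 1.28% lower. Of the members 0 were called lower with edgeR or DESeq2, and 0 were lower at an unadjusted p under 0.05. Counting every adjusted p under 0.05 whatever the size of the change, 8 members were higher, Timp2 and Timp3 being added, where 19.2% of tested genes were higher and 12.8% lower. Timp4 did not pass, and Mmp12 was left untested by the filter on low counts. In 8 members every BCAS library stood above every sham library, an order seen in 18.5% of tested genes. Of the 9 tested members, 6 passed the filter in both groups and 3 (Mmp3, Mmp19 and Timp1) only through the BCAS libraries, so those 3 could enter the test only by being higher there. Leaving out sham mouse 3 gave 7 called members, with Mmp12 and Timp2 entering and Mmp9 dropping out. Leaving out BCAS mouse 2 also gave 7, with Mmp12 entering.

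**Figure D1:**
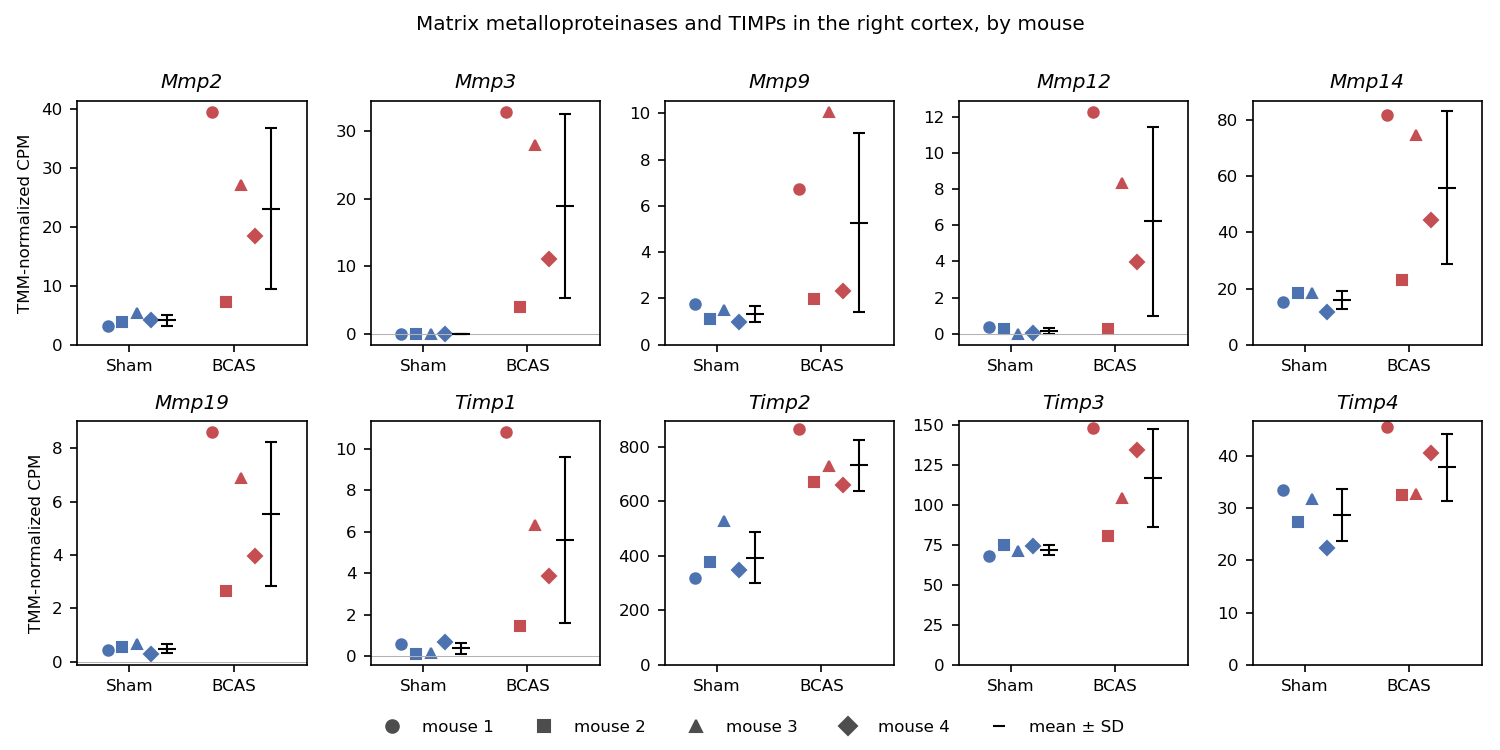
TMM-normalized CPM of each member (vertical axes, a separate linear scale for each gene) in the 4 sham mice (blue) and 4 BCAS mice (red), with a marker shape for each mouse number and the mean ± SD beside each group. The BCAS points lie above all sham points in every panel except Mmp12 and Timp4, and BCAS mouse 1 is the highest point in every panel except Mmp9.

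Mmp3 (stromelysin-1), a secreted protease with many matrix substrates that also activates other MMP proenzymes, was counted in every BCAS mouse and in no sham mouse. It lies on chromosome 9 (7445822 to 7455975, plus strand, mm10, as are all positions here) and shares no exon base with another gene. It was counted 0 times in all 4 sham libraries, which allows a level of up to 0.170 to 0.187 CPM (3 counts). The BCAS libraries held 748, 76, 518 and 203 counts in mice 1 to 4, or 32.8, 3.91, 27.9 and 11.0 CPM. Every BCAS mouse was thus above the level that a count of 0 allows. Against that level, Mmp3 was at least 107-fold higher in the BCAS mean, with at least 22.0-fold in mouse 2 and at least 185-fold in mouse 1 (edgeR adjusted p = 0.00524). Per transcript length it reached 43.2 ± 30.4 TPM (counts divided by exon length and scaled to a fixed sum per library; SD, n = 4) in BCAS mice.

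Mmp12 (macrophage elastase), a protease known from macrophages that cuts elastin, lies 5′ of Mmp3 on the same chromosome (7344381 to 7369499, plus strand). The sham libraries held 6, 4, 0 and 1 counts, or 0.340, 0.249, 0 and 0.0602 CPM. The BCAS libraries held 280, 5, 155 and 73 counts, or 12.3, 0.257, 8.36 and 3.97 CPM. BCAS mice 1, 3 and 4 were far above the sham mice, whereas BCAS mouse 2 lay below sham mouse 1, so the groups overlapped. The mean rose from 0.162 ± 0.159 to 6.22 ± 5.23 CPM (SD, n = 4), and the exact two-sided permutation test gave p = 0.0571, where the smallest p of the 70 arrangements is 0.0286. The pooled counts, 11 against 513, gave a ratio of 39.9 with an exact 95% interval of 22.1 to 80.5, which covers counting error only. Mmp12 missed the low-count filter. Tested without that filter it had a log2 fold change of 5.19 (edgeR adjusted p = 0.00379). It also passed the filter when any sham mouse was left out (log2 4.78 to 5.86, edgeR adjusted p = 0.0329 to 0.0431) or BCAS mouse 2 (log2 5.62, edgeR adjusted p = 0.000196), and stayed untested without BCAS mouse 1, 3 or 4. Mmp12 reached the filter's level in 0 sham and 3 BCAS libraries, so it could enter these last tests only by being higher in BCAS mice, and their p-values are a description.

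Mmp3 and Mmp12 sit in a row of 10 Mmp genes on chromosome 9 (7272514 to 7699585), a group singled out after its values were seen. In sham mice the highest count of any of these genes was 6, in Mmp12, and none of the other genes exceeded 3 counts. In BCAS mice 6 of the 10 exceeded 3 counts in at least 1 library. Mmp13 (collagenase-3) was counted 2, 1, 1 and 0 times in sham mice and 162, 3, 254 and 29 times in BCAS mice, at least 31.8-fold higher on average and at least 16.6-fold without BCAS mouse 3. Mmp8 (neutrophil collagenase) reached 55, 0, 44 and 6 counts in BCAS mice, at least 7.21-fold higher. Mmp27 reached 63, 1, 29 and 5 counts, at least 6.56-fold higher and at least 3.55-fold without BCAS mouse 1. BCAS mouse 2 did not exceed 3 counts in these 3 genes, none of which was tested. The sixth gene, Mmp10 (stromelysin-2), had at most 4 counts, and Mmp1a, Mmp1b, Mmp7 and Mmp20 had at most 2 in any library.

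**Figure D2:**
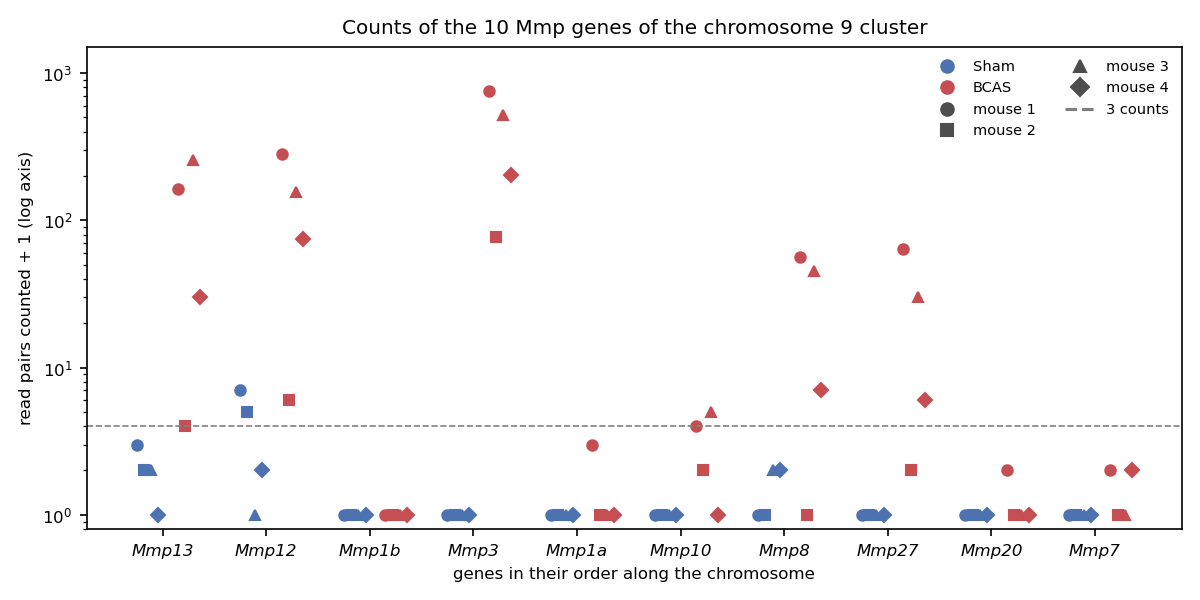
Read pairs counted plus 1 (vertical log axis) for the 10 Mmp genes in their order along chromosome 9 (horizontal axis), for sham (blue) and BCAS (red) mice with a marker shape for each mouse number. Among the sham points only Mmp12 passes the dashed line at 3 counts, with 6 and 4, whereas Mmp3 reaches 748 counts in BCAS mouse 1.

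The sequence before the start sites of Mmp3 and Mmp12 is shown because these genes had the lowest sham counts among the members, and that of Timp1 because it was the inhibitor with the largest fold change. RefSeq windows of 250 bases before the start (GRCm38.p6) were found for 7 of the 10 members, and Mmp2, Mmp9 and Mmp19 had no entry. Motifs and windows were chosen after the expression values were seen. The capitals mark a match to the AP-1 motif TGANTCA, searched on both strands and held by 6.75% of 32851 windows. The 120 bases before each start are printed on the plus strand, from chr9:7445702-7445821 for Mmp3, from chr9:7347254-7347373 for the downstream of the 2 Mmp12 starts, and from chrX:20870046-20870165 for Timp1.
Mmp3: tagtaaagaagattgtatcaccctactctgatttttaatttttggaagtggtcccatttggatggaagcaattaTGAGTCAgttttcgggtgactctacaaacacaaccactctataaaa
Mmp12: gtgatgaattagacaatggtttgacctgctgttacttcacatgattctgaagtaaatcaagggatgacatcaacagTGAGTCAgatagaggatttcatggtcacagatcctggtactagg
Timp1: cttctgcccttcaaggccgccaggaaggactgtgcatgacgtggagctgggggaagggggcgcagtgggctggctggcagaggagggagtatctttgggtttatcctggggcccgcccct
The AP-1 letters ended 40 bases before the start in Mmp3 and 38 bases before it in Mmp12. The windows of the upstream Mmp12 start, Mmp14, Timp1, Timp2, Timp3 and Timp4 held no such match. The ETS core AGGAAG, held by 29.48% of all windows on either strand, was found before the upstream Mmp12 start and before Mmp3, Mmp14, Timp1, Timp3 and Timp4. The GAS motif TTCNNNGAA, held by 7.02%, was in none of the members' windows. A match is a run of letters and was not tested for binding.

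Mmp2 and Mmp9 are the gelatinases, which cut denatured collagen and the type IV collagen of basement membranes. Mmp2 (chromosome 8, 92827291 to 92853420, plus strand) stood at 3.23, 3.80, 5.42 and 4.22 CPM in sham mice and at 39.6, 7.25, 27.1 and 18.5 CPM in BCAS mice. The groups did not overlap, and the lowest BCAS value, in mouse 2, was 1.74 times the sham mean. Mmp2 rose 5.54-fold, a log2 fold change of 2.47 (SE 0.46, edgeR adjusted p = 0.00667). Mmp9 (chromosome 2, 164940780 to 164955850, plus strand) stood at 1.76, 1.12, 1.48 and 0.964 CPM in sham mice and at 6.71, 1.95, 10.1 and 2.34 CPM in BCAS mice. Here BCAS mice 1 and 3 were high, while mice 2 and 4 were only just above sham mouse 1. Mmp9 rose 3.94-fold (log2 1.98, SE 0.54, edgeR adjusted p = 0.0252). This call was the least firm of the 6, since it was lost when any sham mouse or BCAS mouse 3 was left out (adjusted p = 0.0532 to 0.0712) and with limma-voom (adjusted p = 0.0758).

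Mmp14 (chromosome 14, 54431612 to 54445364, plus strand) encodes a membrane-anchored protease that activates the Mmp2 proenzyme together with TIMP2. It stood at 15.4, 18.6, 18.4 and 11.6 CPM in sham mice and at 81.9, 23.0, 74.6 and 44.4 CPM in BCAS mice. It had the highest CPM of the 6 MMP members in both groups, and its groups did not overlap, although BCAS mouse 2 was only 1.44 times the sham mean. Mmp14 rose 3.50-fold (log2 1.81, SE 0.36, edgeR adjusted p = 0.00910).

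Mmp19 (chromosome 10, 128790910 to 128800824, plus strand) encodes a secreted MMP that cuts components of the basement membrane. It went from 0.454, 0.561, 0.685 and 0.301 CPM in sham mice to 8.60, 2.67, 6.90 and 3.97 CPM in BCAS mice. The groups lay well apart, and even BCAS mouse 2 was 5.35 times the sham mean. Mmp19 rose 10.9-fold (log2 3.45, SE 0.44, edgeR adjusted p = 0.00212), from only 5 to 12 counts per sham library. Of its exon bases, 28.3% are also covered by Gm47093 or Tmem198b on the opposite strand, and the counting gave no strand option, so that reads there could not be assigned.

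Timp1, the inducible inhibitor, which can bind the Mmp9 proenzyme and blocks Mmp14 poorly, had the largest rise of the 4 TIMPs. It stood at 0.567, 0.125, 0.171 and 0.662 CPM in sham mice, which rests on 10, 2, 3 and 11 counts. In BCAS mice it stood at 10.8, 1.44, 6.31 and 3.86 CPM. All BCAS mice were above all sham mice, with mouse 2 at 3.77 times and mouse 1 at 28.3 times the sham mean. Timp1 rose 14.4-fold (log2 3.85, SE 0.71, edgeR adjusted p = 0.00653), and the pooled counts of 26 and 462 gave a ratio of 15.2 with an exact 95% interval of 10.3 to 23.5 for counting error only. Timp1 (chromosome X, 20870166 to 20874735, plus strand) lies inside Syn1 on the opposite strand but shares none of its exon bases with another gene.

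Timp2, which inhibits most MMPs and also takes part in the activation of Mmp2, was the most abundant member in every library. It stood at 319, 377, 528 and 348 CPM in sham mice and at 866, 673, 731 and 661 CPM in BCAS mice. The groups did not overlap, and the highest sham value was that of mouse 3, the library with high choroid plexus markers, whose part in it was not tested. Timp2 (chromosome 11, 118301069 to 118355740, minus strand) rose 1.86-fold (log2 0.90, SE 0.17, edgeR adjusted p = 0.00793), under the fold threshold. Without sham mouse 3 it passed that threshold with a log2 fold change of 1.07 (edgeR adjusted p = 0.0113).

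Timp3, an inhibitor that binds to the matrix and also blocks ADAM and ADAMTS proteases, stood at 67.8, 74.6, 71.0 and 74.0 CPM in sham mice. In BCAS mice it stood at 148, 80.4, 104 and 134 CPM, all above the sham mice, with mouse 2 nearest to them. Timp3 (chromosome 10, 86300372 to 86349506, plus strand) rose 1.62-fold (log2 0.70, SE 0.17, edgeR adjusted p = 0.0182), under the fold threshold. The adjusted p went to 0.0575 without sham mouse 1 and to 0.0505 without BCAS mouse 4.

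Timp4, which in adult tissue is found mainly in heart and brain, stood at 33.4, 27.3, 31.6 and 22.3 CPM in sham mice and at 45.4, 32.4, 32.7 and 40.6 CPM in BCAS mice. The groups overlapped, since BCAS mice 2 and 3 were below sham mouse 1. Its log2 fold change of 0.40 (SE 0.16) did not pass the test (edgeR adjusted p = 0.0782, exact two-sided permutation p = 0.0857). It passed without BCAS mouse 2 (log2 0.48, edgeR adjusted p = 0.0352) and with scaling by library size alone (log2 0.49, edgeR adjusted p = 0.0492), below the fold threshold in each case.

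Timp1, Timp3 and Timp4 each lie within a synapsin gene on the opposite strand, Syn1, Syn3 and Syn2 in that order. Synapsins coat synaptic vesicles in neurons. Of the exon bases of Timp3, 21.3% are shared with Syn3, and of those of Timp4 (chromosome 6, 115241892 to 115252205, minus strand) 1.5% are shared with Syn2. None of the hosts was called with edgeR or DESeq2. Syn1 fell by 0.76 on the log2 scale (edgeR adjusted p = 0.0301), and the log2 changes of Syn2 and Syn3 were -0.47 and -0.38 (edgeR adjusted p = 0.229 and 0.0888). Over these 3 genes the median log2 change was -0.47, where over all tested genes it was -0.01.

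The BCAS mice ranked in nearly the same way in all members. Mouse 1 was the highest BCAS mouse in 9 of the 10 members, the exception being Mmp9, and mouse 2 the lowest in 9, the exception being Timp2. The order 1, 3, 4, 2 held in 6 members (Mmp2, Mmp3, Mmp12, Mmp14, Mmp19 and Timp1). The highest BCAS mouse exceeded the lowest 47.8 times in Mmp12, 8.40 times in Mmp3 and 7.50 times in Timp1, but only 1.31 times in Timp2 and 1.40 times in Timp4. The members share these 4 libraries, so that the repeated order is a description of the mice and not of independent genes.

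**Figure D3:**
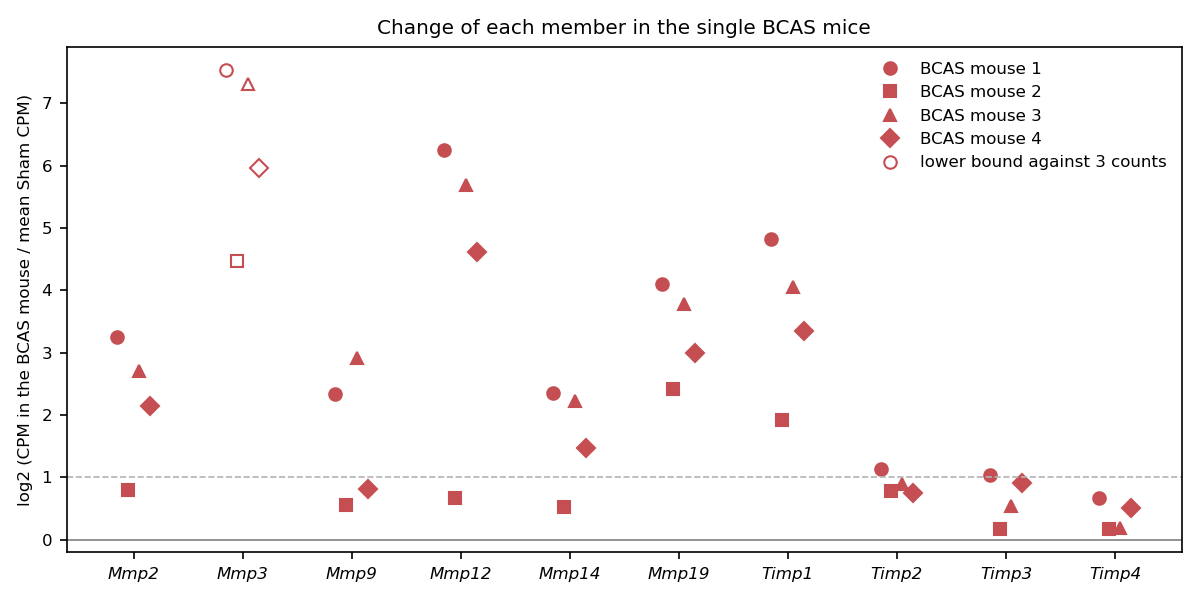
Log2 ratio of the CPM in each BCAS mouse to the mean sham CPM (vertical axis) for the 10 members (horizontal axis), with a marker shape for each mouse. Open symbols for Mmp3 are lower bounds against 3 counts, the solid line is no change and the dashed line a log2 ratio of 1. The 6 MMPs and Timp1 spread widely between mouse 2 and mouse 1, whereas Timp2 lies between 1.68 and 2.20 times the sham mean.

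Cell type markers moved in the same mice. The 8 markers of activated phagocytes were all called higher, and their sum went from 56.3 to 64.9 CPM in sham mice to 2800, 392, 1744 and 1083 CPM in BCAS mice 1 to 4, the same order of mice as in the 6 members above. All 10 microglia markers were called higher (375 to 448 CPM in sham mice), and their sum of 5357, 1464, 2637 and 2848 CPM in BCAS mice 1 to 4 gave the order 1, 4, 3, 2, which is that of Timp3 and Timp4. Called higher were also 6 of 7 markers of monocytes and border macrophages (16.4 to 21.4 CPM in sham and 172, 32.1, 118 and 54.9 CPM in BCAS mice). Of 8 fibroblast markers, 7 were called higher, with sums of 76.6 to 100.3 CPM in sham and 966, 174, 965 and 432 CPM in BCAS mice. Both of these sums also had the order 1, 3, 4, 2. The 9 neutrophil markers were all too low to test. Their sum was 0.436 to 1.03 CPM in sham mice. In BCAS mice 1 to 4 it was 7.15, 0.977, 9.81 and 3.10 CPM, the order 3, 1, 4, 2 of Mmp9. S100a9 was counted 6, 1, 4 and 0 times in sham and 92, 7, 98 and 16 times in BCAS mice. S100a8 was counted 1, 0, 6 and 5 times in sham and 43, 5, 69 and 12 times in BCAS mice. Mpo, Camp, Ltf, Ngp and Retnlg had at most 12 counts in any library, and Ly6g and Elane had 0. Of the endothelial markers 0 of 8 were called, and of the mural cell markers 0 of the 7 tested, with 2 and 3 of them higher at an adjusted p under 0.05 (2 and 4 unadjusted). DESeq2 called none of either. Astrocyte markers had 2 of 9 called higher (Gfap and Aqp4) and 7 of 9 at an adjusted p under 0.05, oligodendrocyte markers 0 of 6 (0 unadjusted), and choroid plexus markers 0 of the 6 tested (1 lower unadjusted), with 0 of either by DESeq2. Of 9 neuron markers 7 were lower at an adjusted p under 0.05, and 1 of them, Snap25, was called. The part of these cell types in the changes of the members was not tested.

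Levels of different genes were compared per transcript length, in TPM. In sham mice the members ordered as Timp2 (428 ± 114 TPM, SD, n = 4), Timp3 (37.3 ± 2.0), Timp4 (20.5 ± 3.6), Mmp14 (11.3 ± 2.4), Mmp2 (5.25 ± 1.33), Timp1 (1.81 ± 1.29), Mmp9 (1.59 ± 0.42), Mmp19 (0.600 ± 0.206), Mmp12 (0.0930 ± 0.0906) and Mmp3 (0). Timp1 and Mmp9 did not differ beyond their spread, and Mmp12, like Mmp3, had no count in sham mouse 3. In BCAS mice Timp2 again led (786 ± 75 TPM), followed by Timp3 (59.8 ± 14.6), Mmp3 (43.2 ± 30.4), Mmp14 (38.9 ± 18.0), Mmp2 (28.3 ± 16.0), Timp4 (26.8 ± 4.1) and Timp1 (26.0 ± 17.8). The last 5 of these lay within each other's spread between mice, and Timp3 overlapped with Mmp3 and Mmp14. The genes share the same libraries, and within every BCAS mouse Timp3 was above Mmp14 and Mmp14 above Mmp2. Mmp3 was above Mmp14 only in BCAS mice 1 and 3. Mmp19 (6.49 ± 2.97), Mmp9 (6.15 ± 4.42) and Mmp12 (3.52 ± 2.90) came last and also overlapped between mice. Within every BCAS mouse Mmp19 was above Mmp12 in TPM. The last place of Mmp12 rests on the length used, which counts all its annotated exon bases (7237, the most of the MMP members). In mean BCAS CPM, without division by length, Mmp12 (6.22) was above Mmp19 (5.54) and Mmp9 (5.27).

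The make-up of the 2 transcript pools changed differently, which is given without a test. The summed TIMP level went from 488 ± 116 to 899 ± 102 TPM (SD, n = 4), with Timp2 at 87.4 ± 2.3% of it in sham and 87.6 ± 2.6% in BCAS mice. Timp1 went from 0.411 ± 0.328% to 2.76 ± 1.62% of the pool, while Timp3 went from 7.89 to 6.63% and Timp4 from 4.33 to 2.99%. Timp2 thus made up most of the inhibitor transcripts in every library. The summed level of all 23 Mmp genes was 269 ± 16 TPM in sham and 307 ± 62 TPM in BCAS mice, so the groups overlapped. Without division by length this sum ran the other way, at 390 ± 35 CPM in sham and 355 ± 42 CPM in BCAS mice, again with overlap. Mmp17, a membrane-anchored MMP of the brain, made up 62.5 ± 4.0% of the MMP pool in sham mice but 29.8 ± 13.8% in BCAS mice. Mmp3, with 0% of the sham pool, took 20.9, 3.91, 17.4 and 9.76% in BCAS mice 1 to 4, and 8.82, 1.23, 6.86 and 3.41% without division by length. The mean share of Mmp14 went from 4.25 to 12.2% and that of Mmp2 from 1.98 to 8.78%. The ratio of the TIMP to the MMP pool was 1.84 ± 0.56 in sham and 2.99 ± 0.43 in BCAS mice, and the groups overlapped, with 2.67 in sham mouse 3 and 2.39 in BCAS mouse 3. Without sham mouse 3 the sham ratios lay between 1.48 and 1.61, below every BCAS mouse. In CPM the groups did not overlap with all mice in, at 1.05 to 1.85 in sham and 2.15 to 2.88 in BCAS mice.

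**Figure D4:**
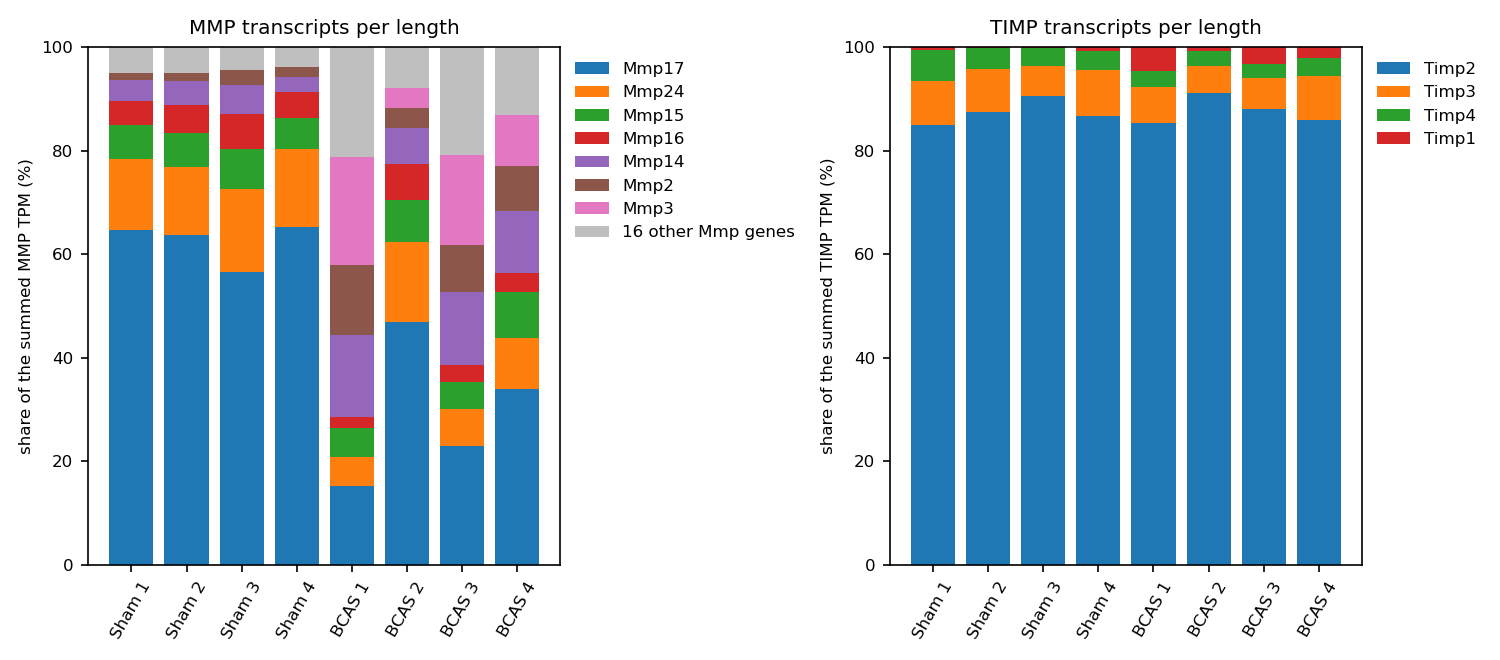
Share of each gene (percent, vertical axes from 0 to 100) in the summed TPM of the 23 Mmp genes (left) and the 4 Timp genes (right) in each library (horizontal axes), as stacked bars. In the MMP pool Mmp17 shrinks from 56.5 to 65.2% in sham mice to 15.3 to 47.0% in BCAS mice, and in the TIMP pool Timp2 holds 84.8 to 91.0% in all 8 libraries.

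Among the 17 other Mmp genes, 8 passed the low-count filter and 2 were called higher, with a median log2 fold change of 0.38. Mmp11 (stromelysin-3) went from 2.10 ± 0.79 to 6.44 ± 2.52 CPM (log2 1.62, edgeR adjusted p = 0.0143), with BCAS mouse 2 below sham mouse 2. Mmp23 went from 0.765 ± 0.472 to 2.09 ± 0.73 CPM (log2 1.44, edgeR adjusted p = 0.0419). With all mice in, none was called lower with edgeR or DESeq2, but 2 were lower below the fold threshold and are named after their values were seen. Mmp17 stood at 279, 291, 210 and 277 CPM in sham mice and at 88.1, 172, 135 and 141 CPM in BCAS mice, and fell by 0.98 on the log2 scale (edgeR adjusted p = 0.00881). Mmp24, a membrane-type MMP of neurons, fell by 0.52 (edgeR adjusted p = 0.0340), and neither gene had overlapping groups. The number called higher ranged from 1 to 4 when single mice were left out, being 1 without BCAS mouse 1, 3 or 4 and 4 without BCAS mouse 2. The number called lower was 1 without sham mouse 3, BCAS mouse 2 or BCAS mouse 4, and 0 without any other single mouse.

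Related proteases and regulators were described from lists taken by family or function. For comparison, 11.0% of all tested genes were called higher and 1.28% lower. At an adjusted p under 0.05 without a fold threshold, 19.2% were higher and 12.8% lower. All 27 ADAM and ADAMTS proteases, the relatives that shed membrane proteins and cut proteoglycans, were tested, and 8 were called higher and 0 lower (median log2 fold change 0.54). Adam8, a protease of leukocytes, rose by 3.06 on the log2 scale (edgeR adjusted p = 0.0100). Adam17, the TNF-alpha converting enzyme that TIMP3 blocks, rose 3.72-fold (edgeR adjusted p = 0.00344). Adamts12, Adamts14 and Adam12 rose by 3.05, 2.92 and 1.80. Of all 27, 13 were higher and 1 lower at an adjusted p under 0.05 (18 and 1 at an unadjusted p), and DESeq2 also called 8 higher and 0 lower.

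In the plasminogen system and other MMP regulators, 15 of 18 genes were tested, 8 called higher and 0 lower (median log2 fold change 1.44). Lcn2, whose protein binds Mmp9, went from 0.275 ± 0.274 to 58.6 ± 60.5 CPM (edgeR adjusted p = 0.00642), with 1.85 CPM in BCAS mouse 2 and 134 CPM in mouse 1. A2m, a plasma inhibitor of many proteases, rose by 5.23 on the log2 scale (edgeR adjusted p = 0.00292). Cd44, a hyaluronan receptor that can hold Mmp9 at the cell surface, rose by 4.21 (edgeR adjusted p = 0.00184). The plasmin inhibitor Serpinf2 rose by 3.89 (edgeR adjusted p = 0.00203). Plau, the protease that makes plasmin, and its receptor Plaur were also called. At an unadjusted p under 0.05, 12 of the 15 were higher and 1 lower, and DESeq2 also called 8 higher and 0 lower.

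Of 16 basement membrane and junction genes, which encode substrates of the MMPs, 7 were called higher and 0 lower (median log2 fold change 0.89), and 13 were higher at an adjusted p under 0.05. Nid1 (nidogen), Col4a1 (a type IV collagen chain), Hspg2 (perlecan), Nid2 and Lamb1 (a laminin chain) rose by 2.29, 1.47, 1.47, 1.39 and 1.14 on the log2 scale. None was lower at an unadjusted p under 0.05 or called lower with DESeq2. Leaving out BCAS mouse 1 left 4 called genes in this list.

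**Figure D5:**
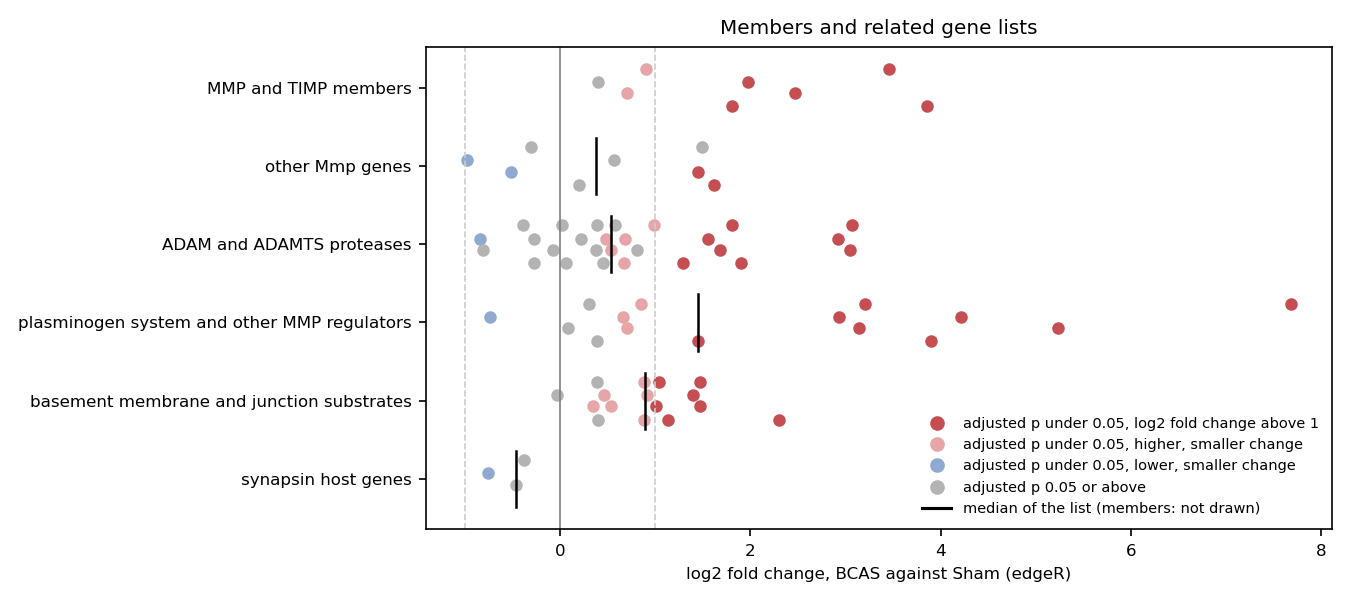
Log2 fold change of BCAS against sham mice from edgeR (horizontal axis) for the tested members and 5 related lists (vertical axis), coloured by the outcome of the test, with a line at the median of each related list. Mmp3, given only as a lower bound, and the untested Mmp12 are not drawn. The called points reach up to Lcn2 at 7.68, and no point is called lower.

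The genes whose pattern over the 8 libraries was most like that of Mmp12 and Timp1 were searched among the 12438 tested genes whose mean count was at least 100. Likeness was the root mean square difference of log2 CPM after each gene was centred on its own mean. For Mmp12 these were Gimap4 (0.46), Gimap3 (0.48), Msr1 (0.55), Ms4a7 (0.63) and Slfn2 (0.67). For Timp1 they were Hpse (0.26), Bcl3 (0.28), Rab7b (0.40), Oas2 (0.42) and Snx20 (0.44). As the search itself favours, all 10 had their lowest BCAS count in mouse 2 and their highest in mouse 1, like Mmp12 and Timp1.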

How the data were processed

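For each library the authors removed adapters with Trim Galore, mapped the read pairs to mm10 with HISAT2 and sorted the alignments with SAMtools 1.9. They deposited raw featureCounts counts of read pairs per gene, without normalization. The file headers name featureCounts 2.0.1 and GENCODE vM20 and give no strand or overlap option, whereas the labels name release 1.6.3. Reads on exon bases of more than 1 gene were therefore counted for none. Total counts were 16759364 to 21794435 per library.

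Counts were tested with edgeR 4.0.16 (R 4.3.3, TMM, filterByExpr with minimum count 10 and total 15, quasi-likelihood F-test between the groups, no covariate). This model replaces the limma model of the study because the files hold counts. Adjusted p-values are Benjamini-Hochberg over 17136 genes. SE was derived from the fold change and F. Where no sham library exceeded 3 counts, the fold is a lower bound against the mean sham level of 3 counts. TPM used the deposited gene lengths. Exact two-sided permutation tests ran over 70 arrangements. Gene symbols were matched by Ensembl ID. No 2 libraries agreed within sampling noise. The procedure was checked on simulated data. In related lists, the named genes are the up to 5 called genes of largest change per direction with a mean of at least 20 counts. The values of 1 gene under this rule are not reported here. Members and lists were chosen with earlier results of these data known. The alternatives changed the scaling, the filter, the test (DESeq2 1.42.0, limma 3.58.1 voom and trend), the fold threshold and the replicate block, and left out each mouse. Figures used matplotlib 3.10.9.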

Additional observations from a re-analysis of the deposited data

Results flagged for a closer look

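Of 53 groups of 4 mice examined for the members and named genes, 3 had a mouse whose gap to the nearest other was above Dixon's 95% critical value, where chance flags about 1 in 20. None was a member. Adamts14 was low in BCAS mouse 2, at 0.977 CPM against 2.07 to 2.16 CPM in the other BCAS mice. Lcn2 was high in sham mouse 3, at 0.685 CPM against at most 0.170 CPM in the others, and A2m was high in the same mouse, at 4.17 CPM against 2.37 to 2.59 CPM in the other sham mice.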

How the results depend on the processing

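The difference of the summed MMP level (BCAS minus sham) was 17.9 to 60.4 TPM without single mice but reversed to -35.0 CPM without division by length, where long and short genes weigh differently. No other result listed here reversed. Mmp9 lost its adjusted p under 0.05 with limma-voom (log2 1.68) and without any sham mouse or BCAS mouse 3. Over all 8 single-mouse omissions it ranged from 1.46 to 2.26. Mmp12 was tested and called without the filter (5.19) and in the 5 single-mouse omissions that let it pass the filter through the BCAS libraries alone (4.78 to 5.86). Timp3 ranged from 0.58 to 0.85 and Timp4 from 0.29 to 0.48, with 0.49 for Timp4 by library size alone. The number of members called higher was 5 to 7 without single mice and 3 with at least 10 counts in every library, which removes low sham genes. Over all genes, 3291 were higher and 2199 lower without a fold threshold, and 1532 to 2408 and 86 to 559 without single mice. Other Mmp genes called higher were 4 without the filter, 1 with at least 10 counts and 1 to 4 without single mice, and called lower 1 with limma-trend, 2 without a fold threshold and 0 to 1 without single mice. Without a fold threshold the ADAM list had 13 higher and 1 lower (0 to 1 lower without single mice), the plasminogen list 1 lower, the substrate list 13 higher (4 to 9 without single mice) and the synapsins 1 lower. Without division by length, Timp1 was 0.0842% of the sham and 0.593% of the BCAS TIMP pool, Timp2 79.1% in sham and 82.2% in BCAS mice, and Mmp17 67.5% of the sham MMP pool.

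Same-numbered mice did not deviate together (correlations of -0.045, -0.103, -0.008 and 0.001), so the numbers gave no sign of pairs. These correlations cannot exclude pairing, since the large differences among the BCAS mice could hide a shared deviation. With the replicate block, 6 members were again called higher, 1 other Mmp gene was called higher and 1 lower, and 1624 genes were higher and 185 lower over all. Sham counts of 0 to 12 in Mmp3, Mmp12, Mmp19 and Timp1 limit the precision of their folds.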
